A study of Homo sapiens with 33 samples.

Results

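The genes described here are 34 members of the unfolded protein response and of quality control in the endoplasmic reticulum (ER), picked by gene name from the deposited tables of a GABPB1 knockout study. The 3 tables hold 15149 gene names in all, with 14332 entries where A-375 total knockouts were compared, 13310 where UM-UC-3 total knockouts were and 14160 where A-375 long-form knockouts were. The same 33 members were listed in each table, and DERL3 was listed in none. By role they are 5 sensors and transcription factors, 10 chaperones and their partners, 6 lectins and disulfide isomerases, 10 genes of ER-associated degradation (9 of them listed) and 3 genes of the translocon.

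GABPB1 encodes the B1 subunit of GABP, an ETS-family transcription factor. A-375 is a human melanoma cell line and UM-UC-3 a human bladder carcinoma cell line. RNA was sequenced from 33 libraries, of which 20 came from A-375 and 13 from UM-UC-3. The A-375 total knockout joined 4 libraries of clones deleted from exon 2 to exon 9 of GABPB1 (B1KO) and 8 libraries of clones deleted for exon 2 (B1X2KO), from 9 clones in all. The UM-UC-3 total knockout joined 4 B1KO and 5 B1X2KO libraries, from 8 clones. The A-375 long-form knockout (B1LKO, exon 9) had 2 libraries from 2 clones. Controls were clones edited at the ROSA26 locus (4 libraries from 3 clones in A-375, 3 libraries in UM-UC-3) and unedited parental cells (2 libraries in A-375, 1 in UM-UC-3). The edited cells were clones grown from single sorted cells, and differences between clones that the edit did not make are part of every comparison. The authors' table titles give parental cells as the control, but the libraries used as controls in a given fit are not listed in the sources used here, so the UM-UC-3 comparison may rest on 1 parental library.

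Each table gives, per gene, a mean over the libraries of counts scaled by DESeq2, the log2 fold change of knockout over control with its standard error (SE), and a Wald test with Benjamini-Hochberg adjustment over the whole table. Genes with an adjusted p under 0.05 are described as called. Values of single libraries and their depths are not used here because the tables hold neither, so the SE is the only measure of spread, and all fold changes and adjusted p-values of a single comparison below are those of the authors' deposited table. The median mean normalized count over all genes was 542 in the A-375 total knockout, 1370 in the UM-UC-3 total knockout and 1565 in the A-375 long-form knockout. In the authors' deposited tables the GABPB1L entry had log2 fold changes of -10.60 in A-375 total, -12.60 in UM-UC-3 total and -12.79 in A-375 long-form knockouts. The long-form table differed from the A-375 total table in its other GABPB1 entries: GABPB1S was at 13.95 in the long-form knockout, where GABPB1S-DEX2 was lower, and at -9.81 in the A-375 total knockout, where GABPB1S-DEX2 was at 12.36. These fitted values rest on groups near 0 and are not sizes of a change. The control side of the long-form fit thus held the GABPB1S-DEX2 entry and next to none of GABPB1S, the reverse of the control side of the A-375 total fit, although the labels give no GABPB1 edit to any control. Which libraries served as controls of the long-form fit is not known. Of 8 melanocytic markers 5 were listed for A-375 total knockouts (SOX10 at a mean of 14704, PMEL at 20.1, MLANA, TYR and DCT not listed), and of 12 urothelial or epithelial markers 5 were listed for UM-UC-3 (KRT18 at 8029, with the uroplakins, KRT5, KRT20, EPCAM and CDH1 not listed). The same 5 were listed for A-375 total knockouts, with KRT18 at 4835, so being listed does not tell the lines apart. SOX10 was at 93.6 for UM-UC-3.

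Proteins that enter the secretory pathway pass through the Sec61 channel into the ER, where chaperones and disulfide isomerases fold them. Proteins that fail to fold are marked, drawn back across the membrane and degraded in the cytosol, a route called ER-associated degradation. The unfolded protein response watches over this balance. IRE1 (encoded by ERN1) splices the XBP1 messenger, ATF6 is cut to release a transcription factor, and PERK (encoded by EIF2AK3) slows translation. The factors made by IRE1 and ATF6 raise transcription of chaperones and degradation genes, in part through the ER stress response element (ERSE) of their promoters.

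Promoters of the members are shown because this element is the shared feature through which ATF6, with the factor NF-Y, is known to act. RefSeq (GRCh38.p14) gave windows from 250 bases before to 50 after the annotated start for 31 of the 34 members, without DERL1, DERL3 and PDIA3. The ERSE was searched as CCAAT, 9 bases and CCACG, and ERSE-II as ATTGG, 1 base and CCACG, on both strands. Exact ERSE matches stood in 7 of 31 member promoters (22.6%), against 25 of 27305 genes (0.0916%). Exact ERSE-II matches stood in 3 of 31 member promoters (9.68%), against 19 of 27305 genes (0.0696%). These elements were already tied to genes of this kind, so the shares are a description and were not tested. The matches follow 5′ to 3′ on the strand of the gene, with the matched element in capitals and 6 flanking bases on either side in lower case. An element on the opposite strand reads CGTGG, 9 bases, ATTGG for ERSE, or CGTGG, 1 base, CCAAT for ERSE-II.
HSPA5, ERSE, chr9:125241385-125241415, minus strand: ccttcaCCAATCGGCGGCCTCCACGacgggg
HSP90B1, ERSE, chr12:103930210-103930240, plus strand: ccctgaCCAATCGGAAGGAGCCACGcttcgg
HSP90B1, ERSE, chr12:103930315-103930345, plus strand: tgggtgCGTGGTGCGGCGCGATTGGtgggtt
XBP1, ERSE, chr22:28800597-28800627, minus strand: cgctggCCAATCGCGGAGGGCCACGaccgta
CALR, ERSE, chr19:12938378-12938408, plus strand: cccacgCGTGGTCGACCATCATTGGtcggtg
CANX, ERSE, chr5:179698772-179698802, plus strand: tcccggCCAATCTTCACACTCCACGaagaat
PDIA6, ERSE, chr2:10812847-10812877, minus strand: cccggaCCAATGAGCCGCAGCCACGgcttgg
CRELD2, ERSE, chr22:49918548-49918578, plus strand: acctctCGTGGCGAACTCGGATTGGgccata
HERPUD1, ERSE-II, chr16:56932019-56932041, plus strand: acgccgATTGGGCCACGttggga
HYOU1, ERSE-II, chr11:119057268-119057290, minus strand: ctgggaCGTGGTCCAATgagtac
HYOU1, ERSE-II, chr11:119057374-119057396, minus strand: ccgtgaCGTGGTCCAATcccagg
SDF2L1, ERSE-II, chr22:21642108-21642130, plus strand: cggaagCGTGGACCAATcaaaac
These 12 matches are in the promoters of 10 members, and HSP90B1 and HYOU1 each held a pair of matches. In HSP90B1 the matches lie on opposite strands.

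The 160 bases just before the start are given for HSPA5 and DNAJB9, the members with the highest fold changes among the chaperones in UM-UC-3 cells. In the HSPA5 stretch capitals mark the ERSE, and in the DNAJB9 stretch they mark CCGGAAG, the core that ETS factors such as GABP bind.
HSPA5, chr9:125241344-125241503, minus strand: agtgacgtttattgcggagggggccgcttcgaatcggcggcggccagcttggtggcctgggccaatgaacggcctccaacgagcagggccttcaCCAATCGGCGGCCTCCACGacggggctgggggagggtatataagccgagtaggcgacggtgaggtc
DNAJB9, chr7:108569714-108569873, plus strand: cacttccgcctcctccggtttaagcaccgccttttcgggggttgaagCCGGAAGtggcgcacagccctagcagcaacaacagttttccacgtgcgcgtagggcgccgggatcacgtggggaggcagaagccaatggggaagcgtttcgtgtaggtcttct
The HSPA5 stretch held 1 exact ERSE, and the DNAJB9 window held no exact ERSE or ERSE-II. The ETS core, searched as CCGGAAG on both strands, was found in 7 of 31 member promoters (22.6%), those of ATF6B, DNAJB9, EDEM2, EDEM3, ERN1, PDIA6 and SYVN1, against 12.2% of all genes and 16.5% of protein-coding genes. The core TGACGTG of the unfolded protein response element was found in 3 of 31 (9.68%), those of DNAJC10, HYOU1 and SEC61A1, against 2.4% of all genes. In HYOU1 it overlaps one of the ERSE-II matches.

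**Figure D1:**
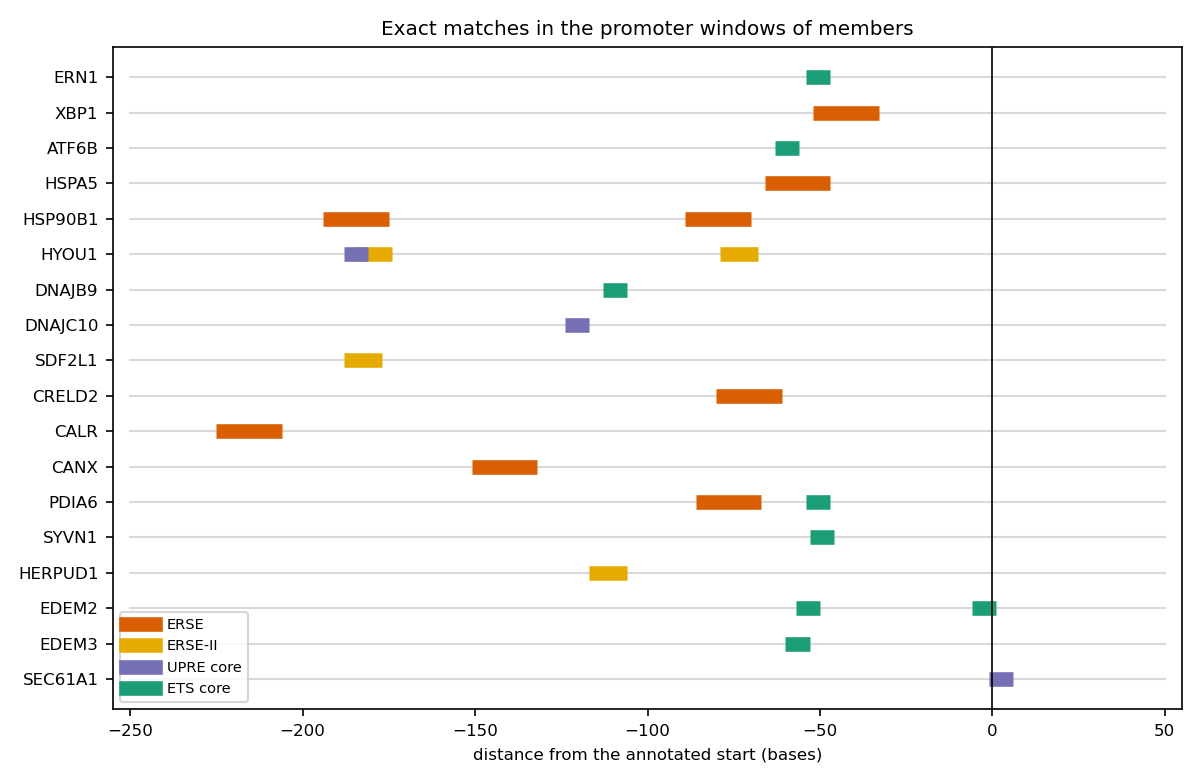
Exact matches to 4 motifs in the RefSeq promoter windows of the 18 members that hold any of them. The x axis is the distance in bases from the annotated start (vertical line), each row is a member and each coloured block a match. All ERSE and ERSE-II matches lie before the start.

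In UM-UC-3 total knockouts 18 of 33 members were higher (54.5%), against 17.0% of all genes tested, and 1 of 33 was lower, against 14.2% of all genes. The median log2 fold change of the members was 0.46, and that of all genes was 0.03. In A-375 total knockouts 4 of 33 members were higher (12.1%), against 5.07% of all genes, and 0 were lower, against 5.74% of all genes. The median of the 33 members in A-375 was 0.28, and that of all genes was -0.05. Without the 3 translocon genes 1 of 30 members was higher in A-375 total knockouts (3.33%), near the 5.07% of all genes. The median of those 30 was 0.23. In UM-UC-3 total knockouts 18 of the 30 were higher (60%). At an unadjusted p under 0.05, 12 of 33 members passed in A-375 total knockouts, 11 of them higher, against 25.3% of all genes in either direction. Fold changes were above 0 for 30 of 33 members in each of these comparisons, against 52.7% of all genes in UM-UC-3 and 45.4% in A-375. Of the members, 0 of 33 were called in both cell lines, against 483 of 12644 genes (3.82%), so this count is near that of all genes. Markers of other cells moved as well: of 6 such markers 2 were listed in the UM-UC-3 table, and both were higher in the knockouts (CD68 at 1.29 ± 0.14 and COL1A1 at 1.06 ± 0.40), while PTPRC, CD14, PECAM1 and COL3A1 were not listed. In A-375 total knockouts CD68 was at 1.43 ± 0.34 and the only one of 3 listed that was called. Of the 5 urothelial or epithelial markers listed for UM-UC-3, GATA3, PPARG and KRT7 were higher and KRT18 lower in the knockouts (KRT18 at -0.67 ± 0.20), and of 5 melanocytic markers listed there DCT and MITF were higher. The part of these markers in the members' changes was not tested.

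**Figure D2:**
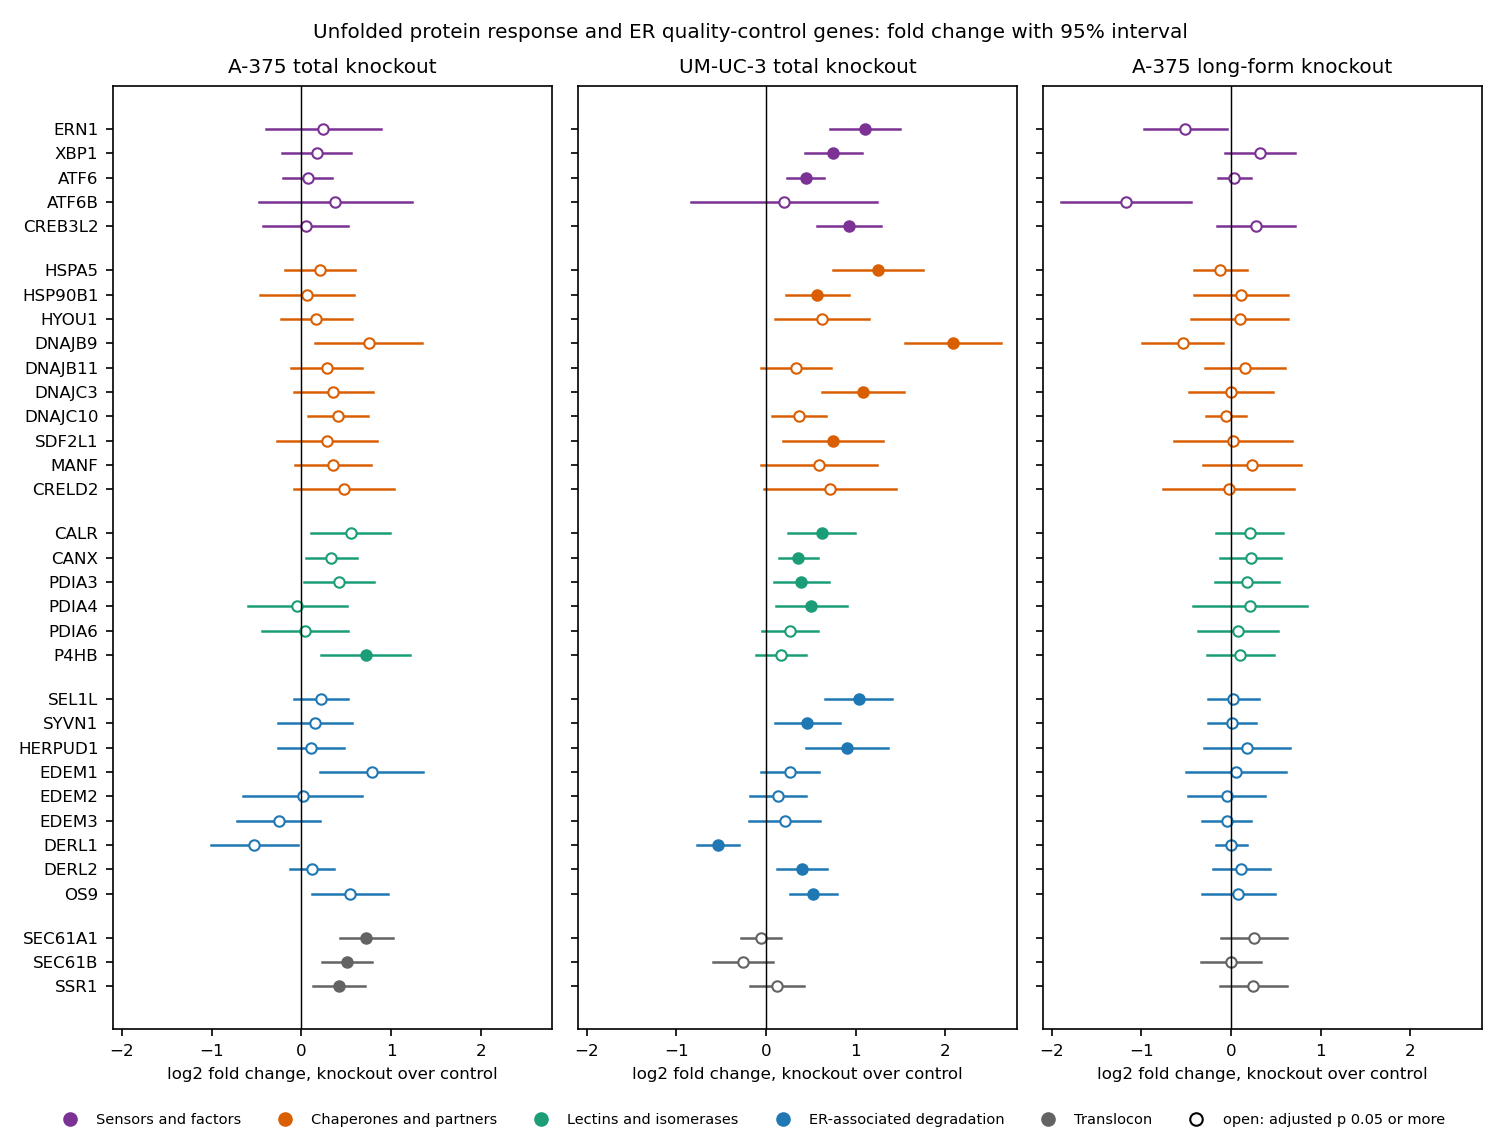
Log2 fold change of knockout over control (x axis) with its 95% interval for 33 members (rows, by role) in the authors' 3 deposited tables. Filled points have an adjusted p under 0.05. In UM-UC-3 total knockouts 18 points are filled above 0 and 1 below, in A-375 total knockouts 4 are filled, 3 of them translocon genes, and in A-375 long-form knockouts 0 are filled.

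Among the sensors and transcription factors, 4 of 5 members rose in UM-UC-3 total knockouts, against 17.0% of all genes. In A-375 total knockouts 0 of 5 were called, which is near the share of all genes there (5.07% higher, 5.74% lower). ERN1, the kinase and nuclease that senses unfolded protein in the ER membrane, had an implied level of 966 normalized counts in UM-UC-3 knockouts, against 449 in controls, and its log2 fold change in the authors' deposited table was 1.11 ± 0.20 (SE, adjusted p = 9.36e-07). Such levels follow from the deposited mean and fold change if 9 knockout libraries and 1 parental library entered the fit. XBP1, the factor whose messenger IRE1 splices, was at 4464 in knockouts and 2655 in controls (0.75 ± 0.16, adjusted p = 7.49e-05). The tables count the gene as a whole and do not tell spliced from unspliced XBP1. CREB3L2, a membrane-bound factor related to ATF6, was at 2497 in knockouts and 1315 in controls (0.92 ± 0.18, adjusted p = 9.37e-06). ATF6 was at 6040 in knockouts and 4453 in controls (0.44 ± 0.11, adjusted p = 0.000409). The exception was ATF6B, the paralog of ATF6, at 0.20 ± 0.53 with an adjusted p of 0.807. It had the lowest mean of the members in this table, 171 normalized counts, and part of its exons (9.92%) is shared with TNXB and AL662884.2 on the same strand, so its count is uncertain. In A-375 total knockouts the fold changes of these 5 genes ran between 0.05 (CREB3L2) and 0.38 (ATF6B) in the authors' deposited table, and 4 of the 5 intervals lay within a 2-fold change either way.

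Chaperones and their partners held the highest fold changes of all members in UM-UC-3 total knockouts, those of DNAJB9 and HSPA5. In UM-UC-3 total knockouts 5 of 10 rose, against 17.0% of all genes, and the median of the 10 was 0.67. DNAJB9, a J-domain partner of BiP also called ERdj4, had an implied 1569 normalized counts in knockouts, against 370 in controls. Its log2 fold change in the authors' deposited table, 2.09 ± 0.27 (adjusted p = 3.26e-12), is a 4.24-fold difference with a 95% interval of 2.93 to 6.14, and 121 of 13310 genes had a higher one. HSPA5, which encodes BiP, the main HSP70 chaperone of the ER, was at 68861 in knockouts and 29024 in controls (1.25 ± 0.26, adjusted p = 2.19e-05). DNAJC3, a J-domain partner of BiP also called P58IPK, was at 7751 in knockouts and 3664 in controls (1.08 ± 0.23, adjusted p = 5.45e-05). The estimates for BiP and these partners were thus each above 2-fold. The 95% intervals of HSPA5 (1.68 to 3.36-fold) and DNAJC3 (1.54 to 2.90-fold) reached below 2-fold, and that of DNAJB9 did not. SDF2L1, which binds BiP and its J-domain partners, was at 1744 in knockouts and 1039 in controls (0.75 ± 0.28, adjusted p = 0.0301). HSP90B1, the HSP90 of the ER, was at 59055 in knockouts and 39817 in controls (0.57 ± 0.18, adjusted p = 0.00798).

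The other 5 chaperones did not pass the test in UM-UC-3 cells, with values above 0 in the authors' deposited table. CRELD2, a disulfide isomerase partner, was at 0.71 ± 0.38 (adjusted p = 0.133), and HYOU1, a nucleotide exchange factor for BiP, at 0.62 ± 0.27 (adjusted p = 0.0612). MANF, a secreted stress protein that binds BiP, was at 0.59 ± 0.33 (adjusted p = 0.165). DNAJC10, a disulfide reductase with a J domain, was at 0.37 ± 0.15 (adjusted p = 0.0523), and DNAJB11, a BiP partner also called ERdj3, at 0.33 ± 0.20 (adjusted p = 0.191). Only 2 of these 5 intervals, those of DNAJC10 and DNAJB11, lay within a 2-fold change, so a rise of that size is within the error for CRELD2, HYOU1 and MANF. Of the 10 chaperones 0 were called in A-375 total knockouts, with fold changes from 0.06 (HSP90B1) to 0.75 (DNAJB9) and a median of 0.32. That count is near the share of all genes there, 5.07% higher and 5.74% lower. DNAJB9 had an implied 641 normalized counts in A-375 knockouts and 381 in controls (for 12 knockout and 2 parental libraries), at 0.75 ± 0.31 with an adjusted p of 0.0915, as the authors' deposited table has it. HSPA5 was at 22711 in A-375 knockouts and 19634 in controls, at 0.21 ± 0.20 with an adjusted p of 0.538.

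**Figure D3:**
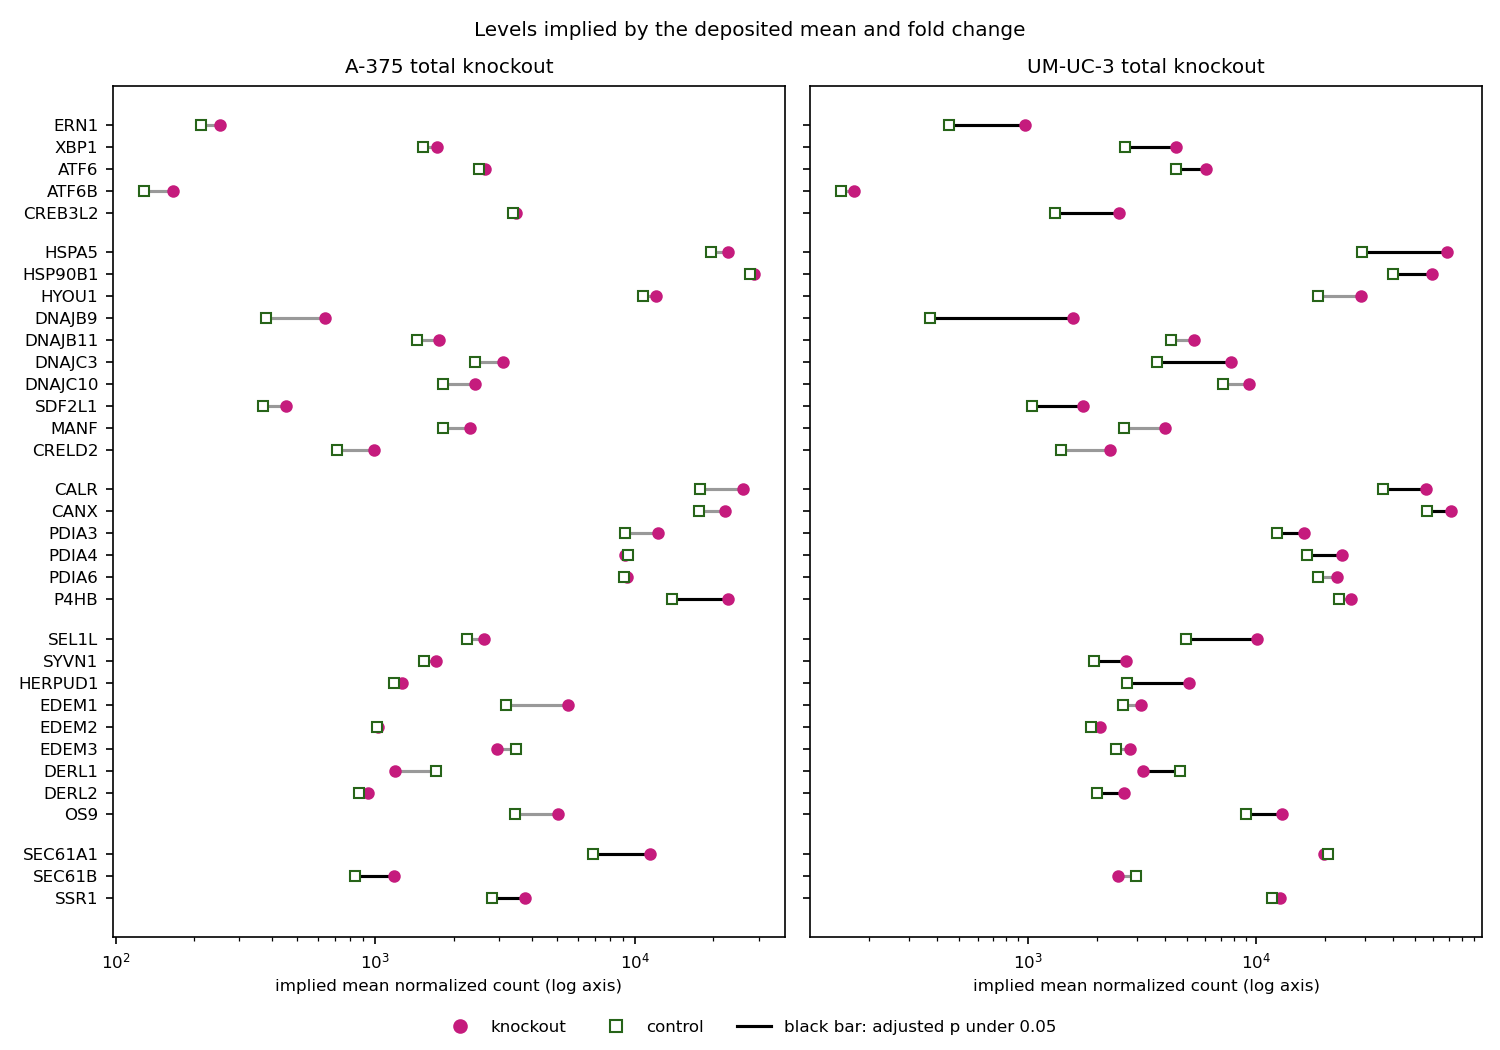
Normalized count implied for knockouts (filled circles) and controls (open squares) on a log x axis, for 33 members (rows, by role) in A-375 total knockouts (left, 12 knockout and 2 control libraries assumed) and UM-UC-3 total knockouts (right, 9 knockout and 1 control library assumed). Black bars join members with an adjusted p under 0.05. DNAJB9 spans 1569 in UM-UC-3 knockouts and 370 in controls, and 641 in A-375 knockouts and 381 in controls.

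Of the lectins and disulfide isomerases 4 of 6 rose in UM-UC-3 total knockouts, against 17.0% of all genes, by less than the leading chaperones. Calreticulin (CALR) and calnexin (CANX), the lectins that hold sugar-bearing proteins for refolding, were at 0.62 ± 0.19 (adjusted p = 0.00609) and 0.36 ± 0.11 (adjusted p = 0.00573), as the authors' deposited table has it. CALR had an implied 55664 normalized counts in knockouts and 36175 in controls, and CANX 71979 in knockouts and 56084 in controls. PDIA4, a disulfide isomerase, was at 0.50 ± 0.20 (adjusted p = 0.0430), and PDIA3, the isomerase that works with these lectins, at 0.39 ± 0.16 (adjusted p = 0.0425). Both were close to the threshold, and both calls were lost after centring on the median of all genes (adjusted p = 0.0592 for PDIA4 and 0.0638 for PDIA3). PDIA6 at 0.27 ± 0.16 (adjusted p = 0.187) and P4HB at 0.16 ± 0.14 (adjusted p = 0.40) were not called, and both of their intervals lay within a 2-fold change. P4HB, the founding protein disulfide isomerase and the beta subunit of prolyl 4-hydroxylase, was the one called in A-375 total knockouts, with an implied 22750 normalized counts in knockouts and 13857 in controls (0.72 ± 0.25, adjusted p = 0.0441). CALR in A-375 cells was at 0.55 ± 0.22 with an adjusted p of 0.0929, as the authors' deposited table has it. Exons of PDIA3 (33.3%) and PDIA6 (25.2%) overlap genes on the other strand, and the sources used here do not say if reads were counted by strand, so both are uncertain.

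Of the 9 listed genes of ER-associated degradation 5 were higher in UM-UC-3 total knockouts (55.6%), against 17.0% of all genes. Only 1 was lower, near the 14.2% of all genes, and 8 of the 9 fold changes were above 0. SEL1L, the scaffold of the ubiquitin ligase complex, had an implied 10137 normalized counts in knockouts and 4953 in controls (1.03 ± 0.19, adjusted p = 1.56e-06, as the authors' deposited table has it). Its partner SYVN1, the ubiquitin ligase HRD1, was at 2688 in knockouts and 1955 in controls (0.46 ± 0.19, adjusted p = 0.0445), a call lost after centring on the median of all genes (adjusted p = 0.0628). Part of the SYVN1 exons (8.39%) is shared with FAU and MIR6751 on the same strand, so its count is uncertain. HERPUD1, a stress-induced protein of the same complex, was at 5097 in knockouts and 2728 in controls (0.90 ± 0.23, adjusted p = 0.000921). OS9, the lectin that brings glycoproteins to SEL1L, was at 0.53 ± 0.13 (adjusted p = 0.000734), and DERL2, one of the derlins of the complex, at 0.40 ± 0.14 (adjusted p = 0.0216). The complex thus had higher messenger levels for its scaffold, lectin and 1 derlin, and for its ligase with the limits just given for SYVN1. Another derlin went the other way: DERL1 was at 3205 in knockouts and 4656 in controls (-0.54 ± 0.12, adjusted p = 8.82e-05). The mannosidase-like genes EDEM1, EDEM2 and EDEM3, which trim sugars of misfolded proteins, were at 0.26, 0.13 and 0.21 in UM-UC-3 cells, and none was called. Of these 9 genes 0 were called in A-375 total knockouts, near the share of all genes (5.07% higher, 5.74% lower). The widest departures there were EDEM1 at 0.78 ± 0.29 (adjusted p = 0.0594), OS9 at 0.54 ± 0.22 (adjusted p = 0.0840) and DERL1 at -0.52 ± 0.25 (adjusted p = 0.160), as the authors' deposited table has it.

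The translocon genes showed the other pattern, called in A-375 and not in UM-UC-3 cells. SEC61A1, which encodes the channel itself, had an implied 11378 normalized counts in A-375 total knockouts, against 6883 in controls (0.72 ± 0.15, adjusted p = 0.000125, as the authors' deposited table has it). SEC61B, a small subunit of the channel, was at 1184 in knockouts and 832 in controls (0.51 ± 0.14, adjusted p = 0.00637). SSR1, the alpha subunit of the translocon-associated protein complex, was at 3756 in knockouts and 2805 in controls (0.42 ± 0.15, adjusted p = 0.0439). All 3 were thus higher in A-375 knockouts, against 5.07% of all genes. In UM-UC-3 total knockouts SEC61A1 was at 19869 in knockouts and 20622 in controls (-0.05 ± 0.11, adjusted p = 0.757), SEC61B at 2477 in knockouts and 2963 in controls (-0.26 ± 0.17, adjusted p = 0.246) and SSR1 at 12791 in knockouts and 11744 in controls (0.12 ± 0.16, adjusted p = 0.583). All 3 of these intervals lay within a 2-fold change. Exons of SEC61A1 overlap RUVBL1 on the other strand over 7.32% of their length, and SSR1 has 2 named pseudogenes. No pseudogene is named for SEC61B in GENCODE.

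**Figure D4:**
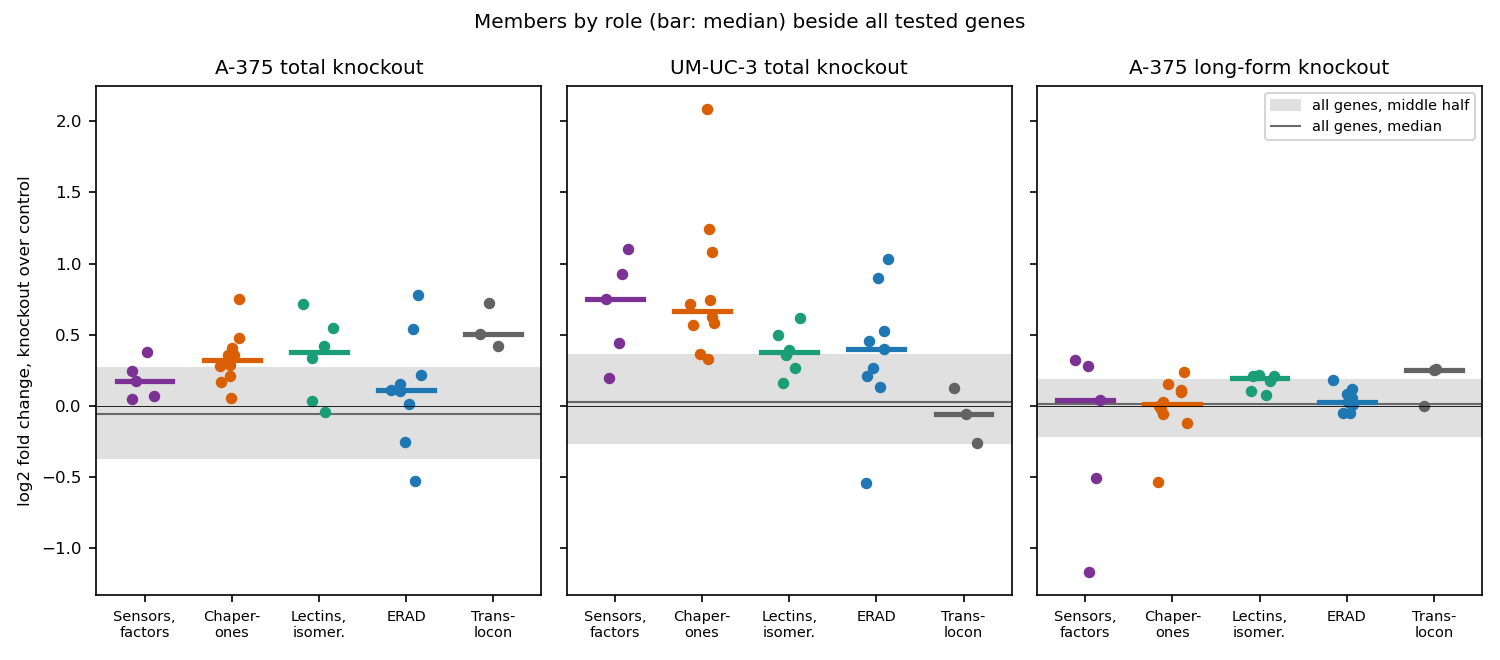
Log2 fold change of knockout over control (y axis) for members by role in the authors' 3 deposited tables. Points are members, coloured bars their medians, the grey band the interquartile range of all tested genes and the grey line their median. The translocon genes have a median of 0.51 in A-375 total knockouts and -0.05 in UM-UC-3 total knockouts, and the sensors and factors 0.17 and 0.75 in the same order.

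Whether a member changed differently in the 2 cell lines was tested as the difference of its log2 fold changes, A-375 minus UM-UC-3, with a normal p adjusted over 12639 genes. The fold change of SEC61A1 was higher in A-375 by 0.78 ± 0.19 (SE, adjusted p = 0.00188) and SEC61B by 0.77 ± 0.22 (adjusted p = 0.0110), so 2 of 33 members were called in this direction, against 4.12% of all genes. In the other direction 4 of 33 were called, against 6.32% of all genes. Counts this small do not set the members apart from all genes. DNAJB9 differed by -1.33 ± 0.41 (adjusted p = 0.0192), HSPA5 by -1.04 ± 0.32 (adjusted p = 0.0218), SEL1L by -0.81 ± 0.24 (adjusted p = 0.0159) and CREB3L2 by -0.88 ± 0.30 (adjusted p = 0.0420). The CREB3L2 call was lost when each table was centred on its median. For the other members called in a single line the difference itself did not pass. ERN1 differed by -0.86 ± 0.38 (adjusted p = 0.128), DNAJC3 by -0.72 ± 0.32 (adjusted p = 0.129), P4HB by 0.55 ± 0.29 (adjusted p = 0.208) and SSR1 by 0.30 ± 0.21 (adjusted p = 0.392). The interval of the difference lay within 2-fold for 13 of 33 members. DERL1 had almost the same fold change in the cell lines, with a difference of 0.01 and a 95% interval from -0.53 to 0.56. The lines also differed in depth of the tables, in the number of clones and controls and in tissue of origin, which cannot be told apart in this design.

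Most members called in UM-UC-3 total knockouts had small positive values in A-375 total knockouts. Of the 18 higher in UM-UC-3, A-375 values not yet given were 0.42 ± 0.20 for PDIA3, 0.36 ± 0.22 for DNAJC3, 0.33 ± 0.14 for CANX and 0.29 ± 0.28 for SDF2L1 in the authors' deposited table. ERN1 was at 0.25 ± 0.33 (adjusted p = 0.675), SEL1L at 0.22 ± 0.15, XBP1 at 0.17 ± 0.20 and SYVN1 at 0.15 ± 0.21. These 8 values are all above 0 and none was called. Next to 0 were DERL2 (0.11 ± 0.13), HERPUD1 (0.11 ± 0.19), ATF6 (0.07 ± 0.14) and PDIA4 (-0.04 ± 0.28). Across all 33 members 29 had the same sign in A-375 as in UM-UC-3 (87.9%), against 56.7% of the 12644 genes in both tables. With 30 of 33 members above 0 in each comparison, most signs had to match, so this count does not show agreement gene by gene. Sizes were not ordered alike. Over the 33 members Pearson's r of the fold changes was 0.21 and Spearman's rho -0.04, against 0.34 and 0.25 over all genes, as a description across genes that share libraries.

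**Figure D5:**
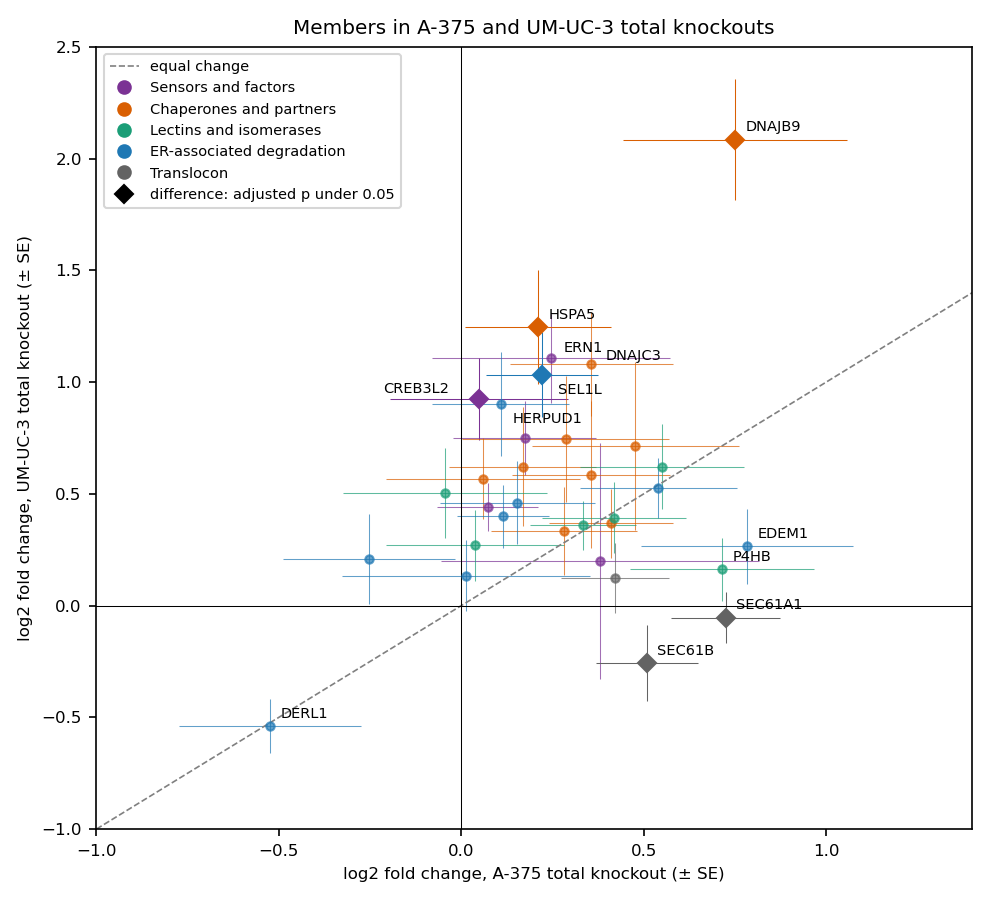
Log2 fold change of 33 members in A-375 total knockouts (x axis) and UM-UC-3 total knockouts (y axis), with error bars of 1 SE and the dashed line of equal change. Diamonds are the 6 members whose difference between the lines has an adjusted p under 0.05. DNAJB9, HSPA5, SEL1L and CREB3L2 lie above the line, and SEC61A1 and SEC61B below it.

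The genes of the members that the comparison of cell lines turns on were placed as follows by GENCODE release 29 on hg38. HSPA5 is at chr9:125234853-125241330 on the minus strand, DNAJB9 at chr7:108569568-108574850 on the plus strand, SEL1L at chr14:81471549-81533861 on the minus strand and CREB3L2 at chr7:137874979-138002067 on the minus strand. SEC61A1 is at chr3:128051641-128071683 and SEC61B at chr9:99222064-99230615, both on the plus strand. Exons of HSPA5, SEL1L, CREB3L2 and SEC61B overlap no other annotated gene, and 9.94% of the exonic bases of DNAJB9 lie opposite PNPLA8 and THAP5. DERL3, the member listed in no table, has 77.0% of its exonic bases opposite SMARCB1.

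In the A-375 long-form knockout 0 members were higher and 0 lower, against 0.240% and 0.664% of all genes. At an unadjusted p under 0.05 there were 3 of 33 members, a share near the 10.9% of all genes, all with lower values in the knockout: ATF6B (-1.17 ± 0.37, adjusted p = 0.106), DNAJB9 (-0.54 ± 0.23, adjusted p = 0.344) and ERN1 (-0.51 ± 0.23, adjusted p = 0.405), as the authors' deposited table has it. The 95% interval lay within a 2-fold change for 32 of 33 members, all but ATF6B. HSPA5 had an implied 50667 normalized counts in long-form knockouts and 55026 in controls (-0.12 ± 0.15), and SEC61A1 23152 in knockouts and 19329 in controls (0.26 ± 0.19). The median of the members was 0.08, and that of all genes was 0.02. By role the medians in the long-form knockout were 0.04 for sensors and factors, 0.01 for chaperones, 0.19 for lectins and isomerases, 0.03 for degradation genes and 0.25 for the translocon genes. The highest single value was that of XBP1, 0.33 ± 0.20 (adjusted p = 0.552). SEL1L (0.03 ± 0.14), ATF6 (0.04 ± 0.09) and SYVN1 (0.01 ± 0.14) stood near 0, with errors that still leave room for small changes. This table rests on 2 knockout libraries, may share controls with the A-375 total table, and has the GABPB1 entries described above on its control side, so it was set beside the others without a test.

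The other genes of these pathways were taken from 4 lists of 126 genes, of which 114 were listed for A-375 total knockouts and 111 for UM-UC-3. In UM-UC-3 total knockouts 14 of the 111 were higher (12.6%), against 17.0% of all genes, and 21 were lower, against 14.2% of all genes. Their median was 0.05, near the 0.03 of all genes. The list of other sensors and their processing also holds genes that act downstream, such as DDIT3 and PPP1R15A. In this list 4 of 13 were higher and 0 lower. DDIT3, the stress factor CHOP, was at 1.98 ± 0.25 (adjusted p = 4.91e-13), TXNIP at 1.26 ± 0.22 (adjusted p = 2.91e-07) and EIF2AK3, which encodes PERK, at 0.81 ± 0.17 (adjusted p = 4.37e-05), as the authors' deposited table has it. The other folding genes had 5 of 32 higher (15.6%, near the share of all genes) and 7 lower, led by ERO1B, an oxidase that recharges disulfide isomerases (1.89 ± 0.28, adjusted p = 7.09e-10), and by MOGS, the first glucosidase of sugar trimming (-0.90 ± 0.14, adjusted p = 6.83e-09). Of the other degradation genes 0 of 28 were higher and 4 lower, the lower ones near the share of all genes, among them UBE2G2, a ubiquitin-conjugating enzyme (-0.69 ± 0.12, adjusted p = 8e-07), and VCP, the ATPase that pulls proteins out of the membrane (-0.49 ± 0.16, adjusted p = 0.00838). Of the other translocon and targeting genes 5 of 38 were higher and 10 lower, with TUSC3, an oligosaccharyltransferase subunit, at -2.0 ± 0.23 (adjusted p = 7.99e-16). SEC61G, of the Sec61 channel, was also among the 10 lower (-0.49 ± 0.16). In A-375 total knockouts it was not called (0.41 ± 0.16, adjusted p = 0.0639). By the test of the difference between the lines it was 0.91 ± 0.22 higher in A-375 (adjusted p = 0.00216).

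In A-375 total knockouts 13 of the 114 other genes were higher and 1 lower, and 6 of the 13 belonged to the translocon and targeting list. SRPRB, the beta subunit of the signal recognition particle receptor, was at 0.66 ± 0.16 (adjusted p = 0.00182), SSR4, a subunit of the complex that holds SSR1, at 0.82 ± 0.20 (adjusted p = 0.00214), and SEC11C, a signal peptidase subunit, at 0.71 ± 0.21 (adjusted p = 0.0104), as the authors' deposited table has it. The 6 of 38 called (15.8%) stand against 5.07% of all genes, and 0 of 38 were lower, against 5.74%. Of the other degradation genes 3 of 30 were higher (10.0%) and 0 lower: MAN1B1, a mannosidase of the early secretory pathway (0.63 ± 0.18, adjusted p = 0.00959), NPLOC4, a cofactor of VCP (0.37 ± 0.12, adjusted p = 0.0235), and ERLIN2, an ER membrane protein (0.46 ± 0.15, adjusted p = 0.0236). NPLOC4 was called lower in UM-UC-3 total knockouts (-0.33 ± 0.11). By the test of the difference between the lines it was 0.70 ± 0.16 higher in A-375 (adjusted p = 0.000816). Of the other folding genes 3 of 33 were higher (9.09%), namely CDNF, a relative of MANF (1.63 ± 0.48, adjusted p = 0.0137), SIL1, a nucleotide exchange factor for BiP (0.81 ± 0.26, adjusted p = 0.0239), and PRDX4, a peroxiredoxin of the ER (0.48 ± 0.17, adjusted p = 0.0441). TXNDC12, a thioredoxin-like protein of the ER, was the 1 lower (-0.54 ± 0.19, adjusted p = 0.0485). Of the list of other sensors, processing and downstream genes 1 of 13 was higher, PPP1R15A (0.93 ± 0.32, adjusted p = 0.0354), the factor that restores translation after PERK acts. UM-UC-3 total knockouts had more of it as well (0.78 ± 0.21, adjusted p = 0.00134). SIL1 was also called higher in UM-UC-3 (0.57 ± 0.14), and TXNDC12 was called lower there (-0.33 ± 0.12, adjusted p = 0.0257). In the A-375 long-form knockout 0 of the 114 listed were higher, against 0.240% of all genes, and 1 was lower, against 0.664%: TXNIP (-1.71 ± 0.34, adjusted p = 0.000602).

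Fold changes were set beside the promoter elements as a description, without a test. In UM-UC-3 total knockouts 7 of the 10 members with an ERSE or ERSE-II were higher, with a median log2 fold change of 0.67, and 10 of the 21 without one were higher, with a median of 0.40. The members with the element spanned 0.27 (PDIA6) to 1.25 (HSPA5), and those without it -0.26 (SEC61B) to 2.09 (DNAJB9). For A-375 total knockouts the counts of higher members were 0 of the 10 with the element and 4 of the 21 without it, with medians of 0.19 and 0.35. Of all genes 17.0% were higher in UM-UC-3 and 5.07% in A-375 total knockouts, so 0 of 10 is near the share of all genes. Of the 7 members with an ETS core 3 were higher in UM-UC-3 knockouts (DNAJB9, ERN1 and SYVN1), and 14 of the 24 without it were higher. In A-375 knockouts the count was 0 of 7 with the core and 4 of 24 without it, and 0 of 7 is also near the 5.07% of all genes. A match is a run of letters and says nothing of binding in these cells.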

How the data were processed

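Libraries were made from total RNA with a stranded mRNA kit, per the labels' protocols. The submitters' processing notes name HISAT2, SAMtools, StringTie, DESeq2 and hg38 as the build, with no versions. The sources used here do not give the annotation, the use of strand in counting, the control libraries of each fit or the depth per library. What the authors deposited is the output of 3 DESeq2 fits, with no values per library. The authors made the signal column by averaging normalized counts over the libraries. The authors' log2 values, as deposited, are the knockout-over-control fold change and the standard error of that change. The authors' Wald statistic fills the score column, and the deposited p-value columns hold its p, that p after Benjamini-Hochberg adjustment, and a q-value. No model was refitted, and precision is given by the deposited standard error. The 33 libraries include repeated libraries of a clone, so the p-values may measure spread that is partly technical.

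From these columns 95% intervals, implied group levels and the difference between cell lines were computed (Python 3.11.15, pandas 2.3.3, numpy 2.4.6, scipy 1.17.1). The difference was tested over genes whose mean reached 10 in each table, with the root of the summed squared errors. The same calculation was run on simulated fold changes drawn with the deposited errors, which cannot show whether those errors are right. Intervals count as within 2-fold where both bounds are between -1 and 1 on the log2 scale. Gene places and overlaps are from GENCODE release 29 on hg38. The members and lists were chosen with earlier results of these data known. All members were named, and for the other lists up to 3 called genes per list and table with the smallest adjusted p. PPP1R15A, SIL1, TXNDC12, NPLOC4 and SEC61G in UM-UC-3 cells were added after their values were seen. So were TXNDC12 and SEC61G in A-375 cells and the differences between the lines for NPLOC4 and SEC61G. Alternatives were centring, other thresholds, filters and adjustments, and other promoter backgrounds.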

Additional observations from a re-analysis of the deposited data

Results flagged for a closer look

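The 6 members below changed differently in the 2 cell lines by a test of the difference of log2 fold changes, A-375 minus UM-UC-3. SEC61A1 (0.78) and SEC61B (0.77) were the pair with the higher change in A-375 total knockouts. DNAJB9 (-1.33), HSPA5 (-1.04), CREB3L2 (-0.88) and SEL1L (-0.81) had the higher change in UM-UC-3 total knockouts. The numbers of members called, 2 and 4 of 33, stand against 4.12% and 6.32% of all genes, and counts this small do not set the members apart. At an adjusted p under 0.01 these numbers were 1 and 0.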

How the results depend on the processing

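The deposited fold changes and p-values were recomputed under other choices. The 4 members higher in A-375 total knockouts became 2 at an adjusted p under 0.01 (SEC61A1 and SEC61B), against 2.30% of all genes. With Benjamini-Yekutieli adjustment 1 was left (SEC61A1), against 1.7% of all genes. The 18 members higher in UM-UC-3 total knockouts became 13 at an adjusted p under 0.01, against 11.1% of all genes. They became 10 with Benjamini-Yekutieli adjustment, against 9.18% of all genes, down from 17.0%. Between the lines, at an adjusted p under 0.01, 1 member (SEC61A1) remained higher in A-375 and 0 in UM-UC-3, against 1.65% and 2.45% of all genes. Centring on the table medians (shifts of -0.05, 0.03 and 0.02) brought EDEM1 in for A-375 (adjusted p = 0.0420), where 6.32% of all genes were then higher. Centring left 15 in UM-UC-3, without PDIA3, PDIA4 and SYVN1, against 15.3% of all genes. It also turned 4 uncalled values near 0, PDIA4 to 0.0079 in A-375 total knockouts, and DNAJC3, SYVN1 and DERL1 to -0.015, -0.0020 and -0.0093 in long-form knockouts. The deposited q-value gave 6 members higher in A-375, against 7.08% of all genes, and 20 in UM-UC-3, against 22.65%. Filters on the mean changed none of these counts. An ERSE with at most 1 mismatch was in 13 of 31 member promoters (41.9%), against 1.89% of all genes, a choice made after seeing the data. With all controls that the labels allow, implied levels moved by at most 9.27% in A-375 and 20.8% in UM-UC-3 total knockouts and 16.1% in long-form knockouts. No paired analysis was possible because the tables hold no values per library, and leaving out each replicate was not run for the same reason. Depth per library is unknown.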
